A study of Mus musculus with 9 samples.

Results

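Distal sites that lay close together were collected from peak lists of 2 chromatin remodeling proteins, PBRM1 and BRG1, in wild-type (WT) primary oviductal muscle cells of mice on D2 (day 2) of pregnancy. Peaks of the 6 replicate lists were merged on chromosomes 1 to 19, which gave 81587 regions, of which 12655 held a peak in all 6 lists. Of those six-list regions, 8195 had their midpoint within 2 kb of a transcript start and are called promoter regions here, and 4460 were distal. Distal regions separated by gaps of at most 12.5 kb were joined, and chains of 3 or more were kept. Only 53 of the 4460 distal regions (1.19%) fell into such chains, and they formed 17 chains, 15 of 3 regions and 2 of 4. A further 462 distal regions stood in 231 pairs and 3945 stood alone. Presence of a peak in all 6 lists and the distance between regions thus chose these sites, so neither is a result.

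The 6 libraries analyzed were 3 replicates with an antibody to PBRM1 and 3 with an antibody to BRG1, all by ChIC-Seq, in which a nuclease tethered to an antibody cuts chromatin beside the bound protein and the released DNA is sequenced. Each library was made from 50000 cells of the oviducts of mice 8 to 12 weeks old, after enzyme digestion, filtration and a few hours in culture. The 3 IgG samples of the series were not analysed here, and the labels do not say whether replicates came from separate animals, so p-values measure the spread between these libraries, which may be technical. Libraries held 14284532 to 23992352 fragments, and the PBRM1 libraries were all deeper than the BRG1 libraries. Of 14 smooth muscle contractile genes, 8 had a six-list region at a start site, among them Acta2, Smtn and Mylk, and 6 did not, among them Myh11, Tagln and Cnn1. None of 14 epithelial, 8 endothelial or 8 leukocyte markers had one, and of 7 neuronal markers 1 did (Elavl4), whereas 40.7% of all 20780 protein-coding genes did.

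PBRM1 (also called BAF180) is a subunit of PBAF, a form of the SWI/SNF complex that moves and evicts nucleosomes, and BRG1 is an ATPase that drives several SWI/SNF forms, PBAF included. Enhancers are distal sequences where transcription factors gather and raise the activity of genes, and factors such as AP-1 recruit SWI/SNF to them. Dense groups of enhancers with an unusually high load of factors or acetylated histones have been named super-enhancers, and they are usually found by joining nearby sites and ranking the groups by summed signal. Histone marks were not measured in the files used here, so the chains are described by position and by PBRM1 and BRG1 signal alone.

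To show what these sites look like, the reference sequence around the strongest pooled summit is printed for 10 member regions, 100 bp to either side, plus strand, 5′ to 3′, GRCm38.p6. The set holds the strongest member of the chains near Fgfr4, Socs3, Tln2, Fam50b, Sspn and Smad6, all 3 members of the chain near Itga11, because they differ in the words they carry, and the member richest in CpG, near Chst14. Capitals mark the AP-1 word TGANTCA, the TEAD word GGAATG and the RUNX word TGTGGT on either strand, so that CATTCC and ACCACA are the latter pair read from the other strand. Members are numbered from the lower coordinate within each chain, which is named by its nearest protein-coding gene.
Fgfr4 3 (chr13:55190345-55190545): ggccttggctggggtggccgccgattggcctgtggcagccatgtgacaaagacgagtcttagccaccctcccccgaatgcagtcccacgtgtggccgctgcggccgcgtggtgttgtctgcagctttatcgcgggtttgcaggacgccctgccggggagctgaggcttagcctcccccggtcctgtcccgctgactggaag
Socs3 1 (chr11:117932237-117932437): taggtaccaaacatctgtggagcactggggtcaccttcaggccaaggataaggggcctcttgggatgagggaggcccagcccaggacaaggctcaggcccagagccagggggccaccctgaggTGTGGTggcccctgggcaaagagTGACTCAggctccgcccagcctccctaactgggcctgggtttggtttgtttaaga
Itga11 1 (chr9:62624691-62624891): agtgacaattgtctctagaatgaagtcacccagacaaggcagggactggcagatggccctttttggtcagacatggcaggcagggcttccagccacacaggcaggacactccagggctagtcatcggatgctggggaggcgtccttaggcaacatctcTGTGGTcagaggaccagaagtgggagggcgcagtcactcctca
Itga11 2 (chr9:62627151-62627351): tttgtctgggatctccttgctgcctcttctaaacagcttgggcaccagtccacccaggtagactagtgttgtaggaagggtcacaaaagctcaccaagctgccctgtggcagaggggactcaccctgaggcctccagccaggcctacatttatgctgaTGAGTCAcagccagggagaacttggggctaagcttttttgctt
Itga11 3 (chr9:62637960-62638160): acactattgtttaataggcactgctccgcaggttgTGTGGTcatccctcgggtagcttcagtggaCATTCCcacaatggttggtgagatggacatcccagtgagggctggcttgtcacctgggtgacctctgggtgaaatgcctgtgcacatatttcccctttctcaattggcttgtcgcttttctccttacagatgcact
Tln2 3 (chr9:67584829-67585029): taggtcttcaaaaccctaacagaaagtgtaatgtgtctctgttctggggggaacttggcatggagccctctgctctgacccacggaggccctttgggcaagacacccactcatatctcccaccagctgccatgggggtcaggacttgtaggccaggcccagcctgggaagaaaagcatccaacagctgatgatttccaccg
Fam50b 4 (chr13:34726401-34726601): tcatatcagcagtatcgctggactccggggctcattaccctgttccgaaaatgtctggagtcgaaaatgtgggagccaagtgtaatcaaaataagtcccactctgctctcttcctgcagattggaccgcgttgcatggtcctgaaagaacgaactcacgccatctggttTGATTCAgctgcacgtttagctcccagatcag
Sspn 4 (chr6:145998733-145998933): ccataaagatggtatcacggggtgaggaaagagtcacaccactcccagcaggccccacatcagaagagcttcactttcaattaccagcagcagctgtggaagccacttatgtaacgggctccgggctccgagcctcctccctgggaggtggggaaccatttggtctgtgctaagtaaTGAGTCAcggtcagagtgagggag
Smad6 3 (chr9:64068042-64068242): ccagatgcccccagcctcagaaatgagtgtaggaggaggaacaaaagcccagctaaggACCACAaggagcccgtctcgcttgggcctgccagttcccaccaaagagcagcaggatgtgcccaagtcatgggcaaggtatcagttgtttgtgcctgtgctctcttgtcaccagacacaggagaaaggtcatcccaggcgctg
Chst14 3 (chr2:118976526-118976726): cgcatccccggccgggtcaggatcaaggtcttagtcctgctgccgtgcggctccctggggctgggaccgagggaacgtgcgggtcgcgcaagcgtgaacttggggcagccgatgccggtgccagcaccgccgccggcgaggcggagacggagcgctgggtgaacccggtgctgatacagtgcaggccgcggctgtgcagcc

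These 10 windows already differed in content. The Socs3 1 window held an AP-1 word and a RUNX word, Itga11 2, Fam50b 4 and Sspn 4 held an AP-1 word without the others, Itga11 1 and Smad6 3 held a RUNX word alone, and Itga11 3 paired a TEAD word with a RUNX word. No such word was found in the windows of Tln2 3, Fgfr4 3 or Chst14 3. Across all 53 members, in windows of 301 bp, 15 (28.3%) held AP-1, the site of FOS and JUN proteins, against 32.6% of lone and 29.0% of paired distal regions and 6.48% of promoter regions. TEAD, the partner of YAP and TAZ, was in 12 members (22.6%) and in 25.4% of lone regions. RUNX was in 17 members (32.1%), compared with 24.2% of lone regions and 24.2% of pairs. These shares are descriptions without a test, since sequence is the same in every library, and over all 12655 six-list regions they were 15.5%, 16.1% and 16.5%.

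The other words searched, on both strands, were found in fewer members. The CArG box bound by SRF and the MEF2 word, both used by muscle genes, were in 0 of 53 members, and stood in 2.18% and 0.862% of lone regions. GGGCGG, bound by SP and KLF factors, was in 65.9% of promoter regions and in 5 members (9.43%). CCGGAAGT (ETS) and TGACGTCA (CREB) were each in 0 members, against 7.28% and 3.53% of promoter regions. As a control for base composition, the AP-1 letters in reverse order, ACTNAGT, were in 7.55% of members and 9.0% of lone regions. MEIS (TGACAG) was in 10 members (18.9%, lone 23.0%), FOX (TGTTTAC) in 3 (5.66%, lone 4.31%), the steroid receptor element in 1 (1.89%, lone 1.06%) and the CTCF core word in 1 (1.89%, lone 0.735%), and the full NFI palindrome in 0 (lone, 0.0507%). Over all six-list regions, the shares were 1.69% for the CArG box, 0.553% for MEF2, 47.2% for SP/KLF, 4.98% for ETS, 2.57% for CREB, 5.63% for the reversed letters, 18.2% for MEIS, 2.88% for FOX, 0.719% for the steroid element, 0.616% for the CTCF core and 0.0474% for NFI. A word is a string of letters and not a bound site, and the words were searched one by one, so that matches may share letters.

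**Figure D1:**
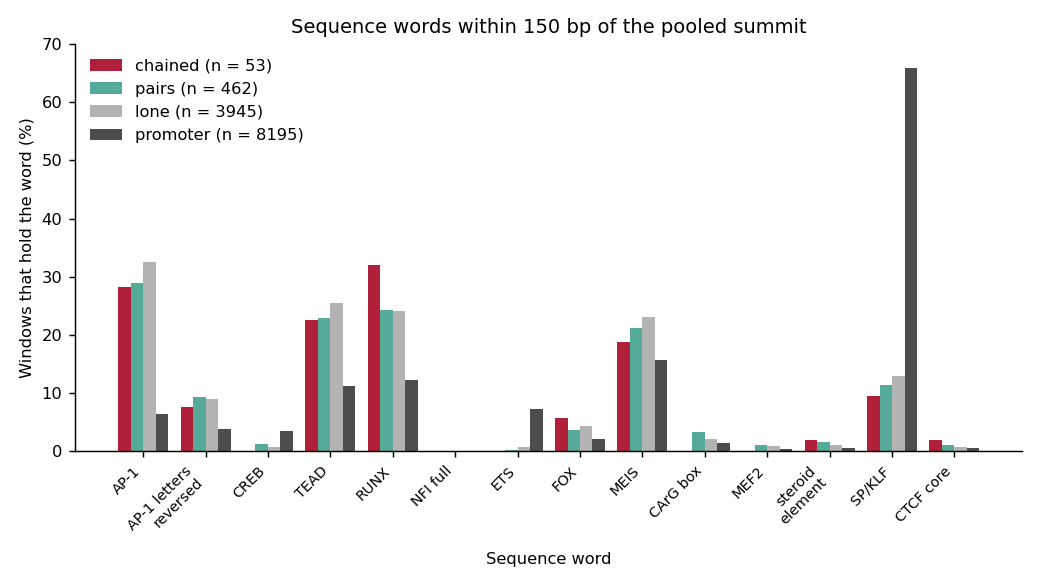
Share of summit windows of 301 bp that hold each sequence word on either strand (y axis, percent) for 53 chained, 462 paired and 3945 lone distal regions and 8195 promoter regions. Chained, paired and lone regions stand close together for AP-1 (28.3%, 29.0% and 32.6%), and promoter regions differ from all 3 for AP-1 (6.48%) and SP/KLF (65.9%).

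By chain, at least 1 AP-1 word was found in 11 of the 17 chains, 2 or more members with one in 4 chains, and at least 1 RUNX word in 11 chains. Median GC content was 50.3% in chained, 49.6% in paired and 48.2% in lone regions, well under the 59.9% of promoter regions. A pair of neighbouring members near Chst14 stood apart: Chst14 2 and Chst14 3 had 6.54 and 8.41 CpG per 100 bp, at or above the median of promoter regions (6.52), although the nearest annotated start was 24.1 and 20.7 kb away. The same density was reached by 97 lone regions (2.46%).

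The 17 chains spanned 8.253 to 31.264 kb (median 18.3 kb), and the member regions, 390 to 1460 bp long, filled 10.7% to 23.5% of the span. The 36 gaps between members ranged from 0.538 to 12.156 kb with a median of 8.47 kb. The widest gap kept, 12156 bp, was in the chain near 1500009L16Rik, and the narrowest that kept a region out, 12556 bp, lay near Rnf19b. At the other threshold, the member nearest to a start, Fam50b 2, was 2078 bp away, and the farthest promoter region was at 2000 bp. Of the members, 46 were intergenic, 7 were in introns and 0 in exons, which makes 86.8% intergenic against 48.0% of lone and 57.1% of paired regions. No chain held a six-list promoter region within its span. Chains lay downstream of the nearest gene in 10 cases, upstream in 5 and within it in 2, and the start of that gene was 6.01 to 463 kb from the nearest member (median 39.6 kb).

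**Figure D2:**
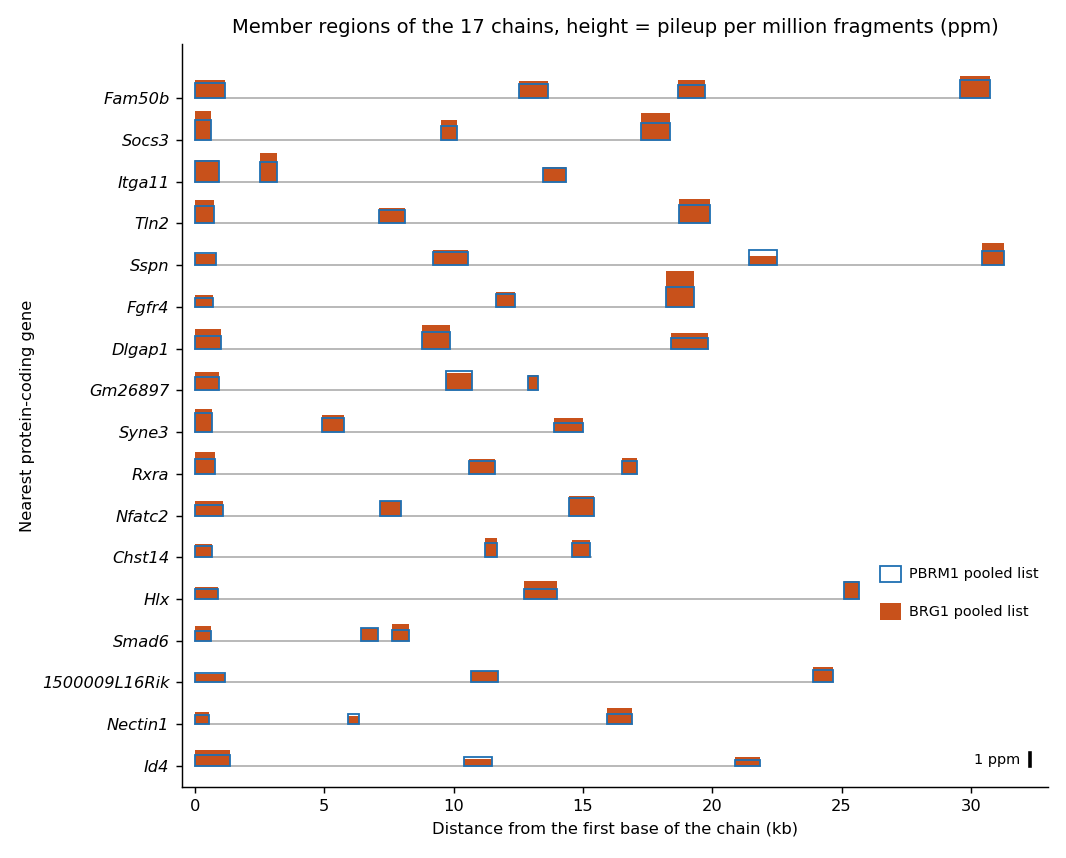
Member regions of the 17 chains by distance from the first base of the chain (x axis, kb). Chains are ordered by summed pileup, and the height of a filled box (BRG1) or open box (PBRM1) is the pooled pileup per 1000000 fragments (ppm), with a scale bar of 1 ppm. Fgfr4 3 is the tallest box. Several members, among them Sspn 1, Sspn 3, Gm26897 2, Nectin1 2 and Id4 2, are taller for PBRM1 than for BRG1.

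The nearest protein-coding genes were of mixed function, and they are grouped here by what they are known to encode, a grouping made after the chains were known. Regulators of signaling were Socs3, a feedback inhibitor of cytokine receptors (chr11:117931983-117950329, 15.8 kb past the end of the gene), Smad6, an inhibitor of BMP signaling (chr9:64060177-64068429, 38.1 kb upstream), and Fgfr4, a receptor of fibroblast growth factors (chr13:55171468-55190751). Fgfr4 was nearest to 1 member of its chain, and the other 2 were nearest to Nsd1, a histone methyltransferase. Genes of adhesion, cytoskeleton and matrix were Itga11, a collagen-binding integrin (chr9:62624329-62638670, 39.2 kb upstream), Tln2, a talin that links integrins to actin (chr9:67565790-67585703, 6.09 kb upstream), Sspn, which encodes sarcospan of the dystrophin complex (chr6:145968027-145999290, 2.80 kb downstream), Syne3, a nesprin of the nuclear envelope (chr12:104978230-104993237, in its introns), Nectin1, a cell adhesion molecule (chr9:43858078-43874985), and Chst14, a sulfotransferase of dermatan sulfate (chr2:118961474-118976763).

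Transcription factors formed another group. Rxra, the retinoid X receptor that pairs with other nuclear receptors, was nearest to a chain at chr2:27802157-27819229, of which member 3 was instead nearest to Col5a1, a chain of collagen V. Nfatc2, a factor controlled by calcium through calcineurin (chr2:168451285-168466693), the homeobox gene Hlx (chr1:184650329-184676017) and Id4, an inhibitor of helix-loop-helix factors (chr13:47776710-47798553), completed the group, although Id4 lay 463 kb away, farther than any other. The remaining chains were nearest to Fam50b (chr13:34696287-34727029), where 3 lincRNA genes, Gm47150, Gm47151 and Gm47152, started within the span, Dlgap1, a scaffold protein of synapses (chr17:70719643-70739490, in its introns), Gm26897 (chr5:111881155-111894425) and 1500009L16Rik (chr10:83871598-83896280). A nearest gene is not a shown target, and in 8 chains the start of the nearest gene was over 50 kb away.

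Lists of genes relevant to the tissue were set beside the chains. The 17 genes nearest to a chain are 0.0818% of protein-coding genes. At that share, lists of 7 to 35 genes would seldom hold one, so a count of 0 says little. Of 19 TGF-beta and BMP genes 1 was nearest to a chain (Smad6), and of 23 extracellular matrix genes 1 was nearest to a single member (Col5a1). No gene of the lists for smooth muscle contraction (14), actin cytoskeleton and adhesion (20), AP-1 and immediate-early genes (19), YAP, TAZ and TEAD (13), SRF, myocardin and MEF2 (7), mesenchymal transcription factors (35) or prostaglandin signaling (21), nor any marker of the other cell types, was nearest to a member. Six-list regions at the gene's own start were present for 6 of the 17 nearest genes, beside 40.7% of all protein-coding genes, namely Socs3, Itga11, Sspn, Nfatc2, Chst14 and Smad6. At Socs3 that promoter region had a pooled pileup of 1.91 ppm, fragments at the summit per 1000000 fragments of the list, for PBRM1 and 3.25 for BRG1, and at Smad6 1.31 and 2.76.

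Signal was measured as pileup, the number of fragments over the summit of the strongest peak in the region, per 1000000 fragments of the library as given in the file header (ppm). Summed over members and averaged over both pooled lists, the chains ranged from 2.30 near Id4 to 5.51 near Fam50b (median 3.84), against medians of 1.04 for lone regions and 2.42 for pairs. Among all 4193 stitched distal units (lone regions, pairs and chains), the 17 chains ranked from 8 to 217, with 14 in the first 100 and all 17 in the first 419. No chain headed the ranking: 7 lone regions exceeded the strongest chain, up to 19.9 ppm, and 53 exceeded the weakest. Chains held 1.27% of the summed distal signal with 1.19% of the regions. The strongest pair reached 4.73, so that pairs and chains overlapped. A sum over 3 or 4 regions is higher by construction, and with no acetylation measured and lone regions at the head of the ranking the chains are not called super-enhancers here.

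**Figure D3:**
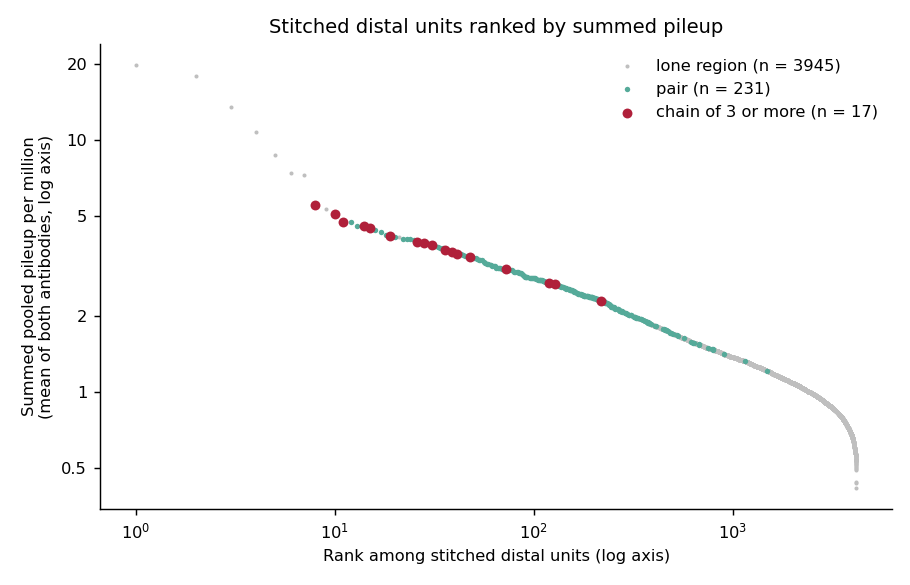
Rank (x axis, log) and summed pooled pileup in ppm (y axis, log, mean of both antibodies) of 4193 stitched distal units. The 17 chains sit between ranks 8 and 217 among pairs and lone regions, below 7 lone regions.

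Per member, chains stood closer to lone regions. The mean pooled pileup per member ran from 0.766 near Id4 to 1.70 near Socs3, and it was above the lone median of 1.04 in 13 of 17 chains. Single members ranged from 0.588 to 2.25 ppm, and 38 of 53 (71.7%) were above the lone median, while 62 lone regions (1.57%) were stronger than any member. Within a chain, the strongest member exceeded the weakest by 1.10 times near Smad6 to 2.76 times near Fgfr4, and the same member was the strongest in at least 4 of the 6 libraries in 15 chains and in all 6 in 3 chains (Fgfr4, Syne3 and Id4). In fragments these are small numbers, since the pileup of a member was between 8 and 50 in any library. The -log10 q that the peak caller gave was at least 5 in 212 of 318 member and list values (66.7%), and no chain had all its values that high.

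The next comparison asked whether chained regions carried more signal than lone ones, within each library. Median pileup in ppm at chained regions was 1.16, 1.16 and 1.08 in PBRM1 replicates 1 to 3 and 1.38, 1.47 and 1.46 in BRG1 replicates 1 to 3. At lone regions the medians were 1.06, 1.05 and 0.959 for PBRM1 and 1.20, 1.26 and 1.20 for BRG1. Every library was thus higher at chained regions. The difference averaged 0.20 ± 0.058 on the log2 scale (SD, n = 6 libraries; higher in 6 of 6; two-sided exact sign-flip test, p = 0.03125, the smallest that 6 libraries allow; 0.0417 after Benjamini-Hochberg adjustment over 4 measures). All 6 libraries, of both antibodies, were read at the same sites. The sign-flip tests here and below thus measure agreement between libraries. They cannot say whether other sites chosen alike would differ. With peaks of -log10 q of at least 5 alone, 1 chain with 3 members remained, and the difference was 0.05 (exact sign-flip test, p = 0.53125). Paired regions had medians of 1.15 ± 0.0925 for PBRM1 and 1.42 ± 0.0465 for BRG1, beside 1.13 ± 0.0443 and 1.44 ± 0.0480 for chained regions (SD, n = 3 each), and promoter regions were higher still at 1.27 ± 0.128 and 1.95 ± 0.0528.

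Fold enrichment, the ratio of pileup to the background of the same library over 10 kb, went the other way. It was lower at chained than at lone regions in 6 of 6 libraries, with class medians of 4.31 ± 0.196 against 4.58 ± 0.0725 for PBRM1 and 4.61 ± 0.149 against 5.04 ± 0.0721 for BRG1 (SD, n = 3 each). The log2 difference was -0.11 ± 0.039 (SD, n = 6; exact sign-flip test, p = 0.03125; adjusted p = 0.0417). The local background itself, pileup divided by fold enrichment, was higher at chained regions by 0.30 ± 0.061 on the log2 scale (SD, n = 6; 6 of 6 libraries; exact sign-flip test, p = 0.03125; adjusted p = 0.0417). Paired regions, which were not tested, had fold enrichment medians of 4.23 for PBRM1 and 4.64 for BRG1. Background medians for PBRM1 were 0.2597 ppm at chained, 0.2697 at paired and 0.2184 at lone regions. For BRG1 they were 0.2999, 0.3014 and 0.2349. Pairs thus differed from lone regions in the same direction, so neither difference was particular to chains. The background window takes in neighbouring peaks, and 23 of 53 members (43.4%) had another merged region of any list within 5 kb of the summit, compared with 36.7% of lone regions. A split into regions with and without such a neighbour was chosen after the data were seen. Among the 30 members and 2499 lone regions with none, the differences were 0.15 in pileup, -0.04 in fold enrichment and 0.21 in background on the log2 scale (exact sign-flip test, p = 0.03125, 0.0625 and 0.03125; adjusted p = 0.0625 each). The cause of the differences was not tested. Peak width differed by 40.3 ± 40.8 bp (SD, n = 6; wider in 5 of 6 libraries; exact sign-flip test, p = 0.0625), which did not pass the threshold.

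**Figure D4:**
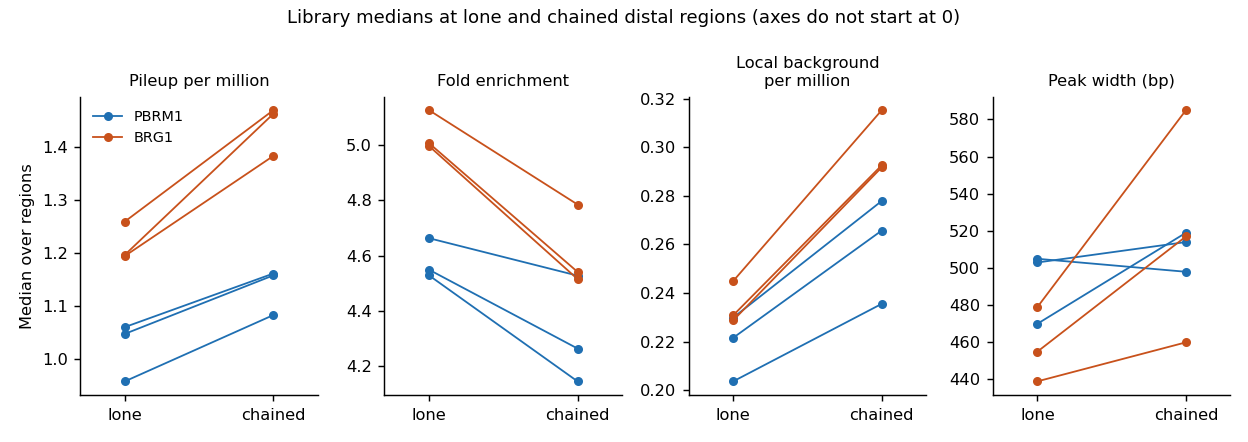
Medians over 3945 lone and 53 chained distal regions in each of the 6 libraries, joined by a line per library, for pileup in ppm, fold enrichment, local background in ppm and peak width in bp (y axes do not start at 0). Pileup and background rise in 6 of 6 libraries, fold enrichment falls in 6 of 6, and width rises in 5 of 6.

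The antibodies were then compared at the chained sites. All 3 BRG1 libraries (medians 1.38 to 1.47 ppm) were above all 3 PBRM1 libraries (1.08 to 1.16), a mean log2 difference of 0.34 (two-sided exact permutation test of 3 against 3, p = 0.1, the smallest possible). The direction was the same over all 12655 six-list regions, where the median of the fitted difference was 0.48, and since the BRG1 libraries were all the shallower ones, antibody and depth cannot be told apart. With each library centred on its median over those regions, the sign turned and BRG1 was lower at the chained sites by a log2 difference of -0.12 (exact permutation test, p = 0.1). Promoter regions are 8195 of the 12655 regions that set those medians. After centring, the median fitted difference was -0.115 at chained, -0.17 at paired and -0.197 at lone regions. It was positive at promoter regions. The negative sign was thus shared by all distal classes and was not particular to chained sites. The gain of chained over lone regions was larger with BRG1 than with PBRM1 by 0.09 on the log2 scale (exact permutation test, p = 0.1), again with no overlap between the libraries, but it was 0.03 with distal regions over 5 kb from a start and 0.07 with gaps of up to 25 kb (exact permutation test, p = 0.2 each), and at the stricter -log10 q it turned to -0.07.

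In a limma fit over all six-list regions, BRG1 was higher at 52.8% and PBRM1 at 0.419% of regions (adjusted p at most 0.05). Of the 53 members, 13 (24.5%) were higher with BRG1 and 0 with PBRM1, beside 21.6% of lone, 27.7% of paired and 69.4% of promoter regions higher with BRG1. At an unadjusted p of 0.05, 18 members were higher with BRG1 and 1 with PBRM1, beside 7477 and 81 of all 12655 six-list regions. Among distal regions the counts were 161 and 2 of 462 paired and 1085 and 68 of 3945 lone regions. After centring, BRG1 was higher at 2.47% and PBRM1 at 2.29% of regions. Of the members, 0 were then higher with BRG1 and 3 with PBRM1 (Sspn 3, 1500009L16Rik 1 and Id4 2; limma adjusted p = 0.00966, 0.0352 and 0.0382). Those 3 are 5.66% of members, beside 5.68% of lone, 3.46% of paired and 0.574% of promoter regions higher with PBRM1. At an unadjusted p of 0.05 in the centred fit, 1 member was higher with BRG1 and 8 with PBRM1, beside 1508 and 1228 of all six-list regions. The same counts were 14 and 72 of 462 paired and 94 and 876 of 3945 lone regions. All 3 BRG1 libraries were above all 3 PBRM1 libraries at 19 of 53 members, against 56.7% of six-list regions. Promoter regions make up 8195 of those 12655 regions, and this share was not counted for lone or paired regions alone. Values below are in ppm, without centring.

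Summed over members, BRG1 exceeded PBRM1 in the pooled lists at 17 of 17 chains. The log2 difference in the fit that follows was positive at 17 chains, 220 of 231 pairs and 3489 of 4193 units. In the limma fit over 4193 stitched units, 15% were called higher with BRG1 and 0.453% higher with PBRM1. Of the 17 chains, 6 were called higher with BRG1 and 0 higher with PBRM1. Of the pairs, the units most like chains, 65 of 231 (28.1%) were higher with BRG1, and of the lone regions 14.2%. At an unadjusted p of 0.05, 12 chains were higher with BRG1 and 0 with PBRM1. The unadjusted counts were 1243 and 68 for all 4193 units, and 119 and 0 for the 231 pairs. The classes were not tested against each other. The 3 BRG1 libraries were all above the 3 PBRM1 libraries at 10 of 17 chains, against 31.6% of all units. Of those 4193 units, 3945 are lone regions, whereas each chain value is a sum over several regions. These shares therefore do not compare like with like, and the share was not counted for pairs alone. In the unadjusted counts, BRG1 was higher at 119 of 231 pairs and at 1112 of 3945 lone regions. After centring, 0 chains were called in either direction, where 0.405% and 5.91% of units were called higher with BRG1 and PBRM1. At an unadjusted p of 0.05, 0 chains were then higher with BRG1 and 3 with PBRM1, beside 97 and 900 of 4193 units.

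Near Fgfr4 the summed pileup in ppm was 3.33, 3.86 and 3.38 in PBRM1 replicates 1 to 3 and 5.03, 5.88 and 5.25 in BRG1 replicates 1 to 3. The groups did not overlap, and the log2 difference of 0.61 ± 0.137 (SE) was the largest of the 17 chains (limma adjusted p = 0.000807). The third member held 53.8% of the pooled signal of the chain and had the largest difference of its members. Fgfr4 3 had 1.52, 2.04 and 1.63 ppm with PBRM1 and 2.77, 3.50 and 2.93 with BRG1, whereas Fgfr4 1 had 0.758, 0.662 and 0.792 with PBRM1 and 1.13, 0.840 and 1.13 with BRG1. Near Socs3 the sums were 4.60, 4.36 and 3.96 with PBRM1 and 5.85, 6.23 and 6.98 with BRG1, again without overlap (log2 difference 0.56 ± 0.130, SE; limma adjusted p = 0.00124). Both calls held in each fit that left out 1 library, and neither held after centring, where the log2 differences were 0.15 near Fgfr4 and 0.09 near Socs3 (limma adjusted p = 0.487 and 0.652). When all peaks of a region were summed the differences stayed at 0.61 and 0.56, with limma adjusted p of 0.0530 and 0.0539.

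The other 4 called chains rested on smaller differences. Near Dlgap1 the sums were 3.69, 3.86 and 3.08 with PBRM1 and 4.72, 5.04 and 4.72 with BRG1 (log2 difference 0.45 ± 0.139, SE; limma adjusted p = 0.0170). Near Smad6 they were 3.18, 3.03 and 2.67 with PBRM1 and 4.34, 3.92 and 3.66 with BRG1 (0.42 ± 0.147, SE; limma adjusted p = 0.0357). Near Syne3 and Rxra, with adjusted p of 0.0425 and 0.0479 in the same limma fit, the BRG1 sums of 4.53 to 4.69 and 4.03 to 4.92 lay above PBRM1 sums of 3.33 to 3.64 and 3.33 to 3.50. The call near Dlgap1 was lost without PBRM1 replicate 3, BRG1 replicate 2 or BRG1 replicate 3 (limma adjusted p = 0.0993, 0.0637 and 0.0617). The call near Smad6 held without PBRM1 replicate 1 (limma adjusted p = 0.0474) and was lost without any other library (0.0571 to 0.140). Near Syne3 and Rxra it was lost without any 1 of the 6 libraries (limma adjusted p from 0.0614 to 0.118 and from 0.0507 to 0.213), and with the replicate number as a block (0.0591 and 0.0631).

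Of the 4 chains with the highest sums, the one near Socs3 was called. Near Fam50b the sums were 5.91, 5.35 and 4.88 with PBRM1 and 5.79, 6.86 and 6.92 with BRG1, so that BRG1 replicate 1 fell within the range of PBRM1 (log2 difference 0.28 ± 0.126, SE; limma adjusted p = 0.117). Near Itga11 they were 5.00, 3.97 and 4.29 with PBRM1 and 4.40, 6.51 and 5.45 with BRG1 (0.29 ± 0.136, SE; limma adjusted p = 0.125), which also overlapped. Near Tln2 the PBRM1 sums of 3.97 to 4.35 did not reach the BRG1 sums of 4.99 to 5.46 (0.34 ± 0.133, SE; limma adjusted p = 0.0684). The lowest sums, near Id4, were 2.43, 2.65 and 1.88 with PBRM1 and 2.70, 2.45 and 2.86 with BRG1. Chains near Chst14, Hlx and Nectin1 were separate between antibodies, and those near Sspn, Gm26897, Nfatc2, Id4 and 1500009L16Rik overlapped, and all 8 missed the threshold (limma adjusted p from 0.0734 to 0.789).

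**Figure D5:**
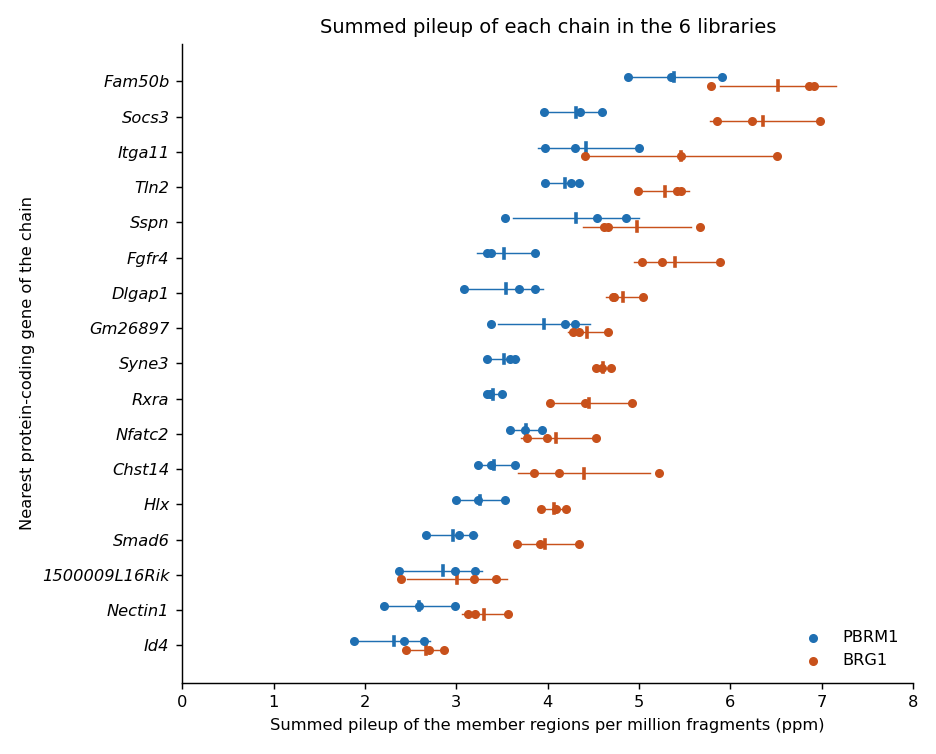
Summed pileup of the member regions in ppm (x axis) for each of 17 chains in 3 PBRM1 and 3 BRG1 libraries. Points are libraries, vertical ticks are means and horizontal lines are SD, and the antibodies are fully separate at 10 chains, by most near Fgfr4 and Socs3.

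Neighbouring members of a chain could differ in the balance of the antibodies. In the chain of 4 near Sspn, Sspn 3 had 0.909, 1.77 and 0.959 ppm with PBRM1 and 0.818, 0.910 and 0.798 with BRG1, with BRG1 replicate 2 at the level of PBRM1 replicate 1. Sspn 4, the next member, had 1.06, 1.16 and 1.25 with PBRM1 and 2.14, 1.61 and 1.80 with BRG1, without overlap. The fitted log2 differences were -0.46 ± 0.228 (SE) at Sspn 3 and 0.67 ± 0.202 (SE) at Sspn 4 (limma adjusted p = 0.0800 and 0.00447), and the difference between the members was not tested. Nectin1 3 was higher with BRG1 as well, at 1.06, 0.772 and 0.792 ppm with PBRM1 and 1.45, 1.61 and 1.33 with BRG1 (limma adjusted p = 0.00305). Across all 53 members the fitted log2 difference ranged from -0.46 to 0.83 with a median of 0.35. It was positive in 47 members, beside 11745 of all 12655 six-list regions.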

How the data were processed

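PBRM1 and BRG1 were profiled by ChIC-Seq in 3 libraries each. The submitters' processing notes name cutadapt, Bowtie2, MACS2 and GRCm38.p5. Narrow peaks were called by the authors, as the headers of the lists state, in MACS 2.2.7.1 with read pairs as input, a q cutoff of 0.05, no control file and a local background over 10000 bp of the same library. The 8 deposited lists (6 of single libraries and 2 pooled by antibody) give each peak's pileup, a coverage signal in fragments at the summit, as deposited by the authors. They also give, as deposited, the fold enrichment, a ratio of pileup to local background, the -log10 q-value, the -log10 p-value and the peak length in bp. No reads were analysed here, so values exist where a peak was called, and six-list regions were the ones compared. The files hold no site-level error, and counting error in 8 to 50 fragments per member limits the precision.

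Peaks overlapping by at least 1 bp were merged on chromosomes 1 to 19 with Python 3.11.15, numpy 2.4.6 and pandas 2.3.3. Distances to transcript starts and features came from GENCODE M21, and sequence from GRCm38.p6 through pysam 0.24.0, whose chromosomes have the same coordinates in every patch of GRCm38. Pileup was scaled to 1000000 fragments of the file header (ppm). Local background was pileup divided by fold enrichment. Libraries were the replicates: class medians of the 6 libraries were compared by two-sided exact sign-flip tests, antibodies by exact permutation tests of 3 against 3, which cannot go below p = 0.1, and single regions and stitched units with limma 3.58.1 (R 4.3.3; log2 of pileup in ppm, no pseudocount since every value is above 0, trend on the mean, Benjamini-Hochberg adjustment over all regions or units). Scripts were tested on simulated data. Member regions and gene lists were chosen with earlier results of these data known. Chains were named by the protein-coding gene with the nearest start. The rule for chains to describe took the 10 with most members and the 10 with the highest sum, which were the same 10, and those nearest to a listed gene (Smad6). The other 6 chains are given to account for every member, and single members were picked after their values were seen. Alternatives were a stricter q, other gaps and distal limits, chains broken at coding starts, pairs added to the lone regions, summed peaks, library centring, removal of repeated sequence, a replicate block and each library left out. Of replicate numbers shared between antibodies, the correlation of deviations over six-list regions lay between -0.0297 and 0.00189, and of unlike numbers between -0.0299 and 0.0307. Library medians and antibody means were taken out first, so a shift in level shared by 1 number could not show. Whether the numbers pair the libraries is therefore not known.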

Additional observations from a re-analysis of the deposited data

How the results depend on the processing

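The set of chains depended on its thresholds. With a -log10 q of at least 5, 1 chain with 3 members remained, with distal regions over 5 kb from a start the chain with the highest sum, near Fam50b, was lost and 16 remained, a gap of 5 kb left 0 chains and 0 members, so that no test was run there, and a gap of 25 kb gave 73 chains with 239 members. Leaving out 1 library, which asks for 5 lists in place of 6, gave 22 to 28 chains and 68 to 86 members, with the most chains without PBRM1 replicate 2 (28) and PBRM1 replicate 1 (27), and the chain near Dlgap1 was lost without PBRM1 replicate 2, BRG1 replicate 1 or BRG1 replicate 3. At the stricter q, the chained minus lone differences in log2 pileup, fold enrichment and background were 0.0494, -0.0546 and 0.0814, and the larger gain with BRG1 turned to -0.0715, and with distal regions over 5 kb from a start that gain was 0.0302. With no other region within 5 kb, an alternative chosen after seeing the data, they were 0.15, -0.0425 and 0.21. Width passed the threshold with the gap of 25 kb (29.0 bp). Without 1 library the differences ranged from 0.18 to 0.21 in pileup, -0.12 to -0.10 in fold enrichment, 0.29 to 0.32 in background and 27.2 to 49.8 bp in width, where 5 libraries allow no p below 0.0625, and the antibody differences from 0.31 to 0.37 at chained regions and 0.07 to 0.11 in the gain over lone regions. The cause of these changes was not tested.

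Counts of regions and units unequal between the antibodies moved with the scale. Centred on library medians, 312 regions were higher with BRG1 and 290 with PBRM1 (0 members with BRG1), 17 and 248 units (0 chains), the difference at chained regions was -0.12, and the log2 differences near Dlgap1, Syne3, Rxra and Smad6 were -0.0147, -0.0782, -0.0816 and -0.0418. With all peaks of a region summed, 4882 regions (38.6%) were higher with BRG1 and 35 with PBRM1, 7 members (13.2%) with BRG1, and 98 and 6 units with BRG1 and PBRM1 (0 chains). At the stricter q, fewer were left to compare, with 6424 regions, 3 members, 1269 units and 1 chain. Of those regions, 4508 (70.2%) were higher with BRG1 and 12 with PBRM1. Of those members 1 was higher with BRG1, and of those units 366 (28.8%) with BRG1 and 4 with PBRM1 (0 chains). Without 1 library, 4888 to 6315 regions were higher with BRG1 and 30 to 66 with PBRM1, 7 to 13 members with BRG1, 298 to 508 units with BRG1 and 12 to 33 with PBRM1, and 2 to 4 chains with BRG1. The fewest members (7) were called without BRG1 replicate 3. With the replicate block, 6470 and 49 regions, 12 members, 635 and 21 units and 4 chains were called. Whether the replicate numbers pair the libraries is not known, and the cause of these changes was not tested.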

Other observations

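When gaps of up to 25 kb were allowed, the chains near Rxra, Smad6, Socs3 and Syne3 gained regions and the other chains kept their start, end and number of regions. All 17 chains were part of the 73 chains so formed, of which 58 had 3 regions, 13 had 4, 1 had 5 and 1 had 8. The longest joined 8 regions over 100.627 kb (chr2:27758416-27859042) between Rxra and Col5a1, and the chain near Smad6 grew to 5 regions over 40.389 kb (chr9:64045108-64085496). Among the chains of 4, some lay nearest to Etv4, an ETS factor, Itpkb, a kinase of inositol phosphates, and Flt1, a receptor of vascular endothelial growth factor. The starts of these genes were 5.74, 31.6 and 22.2 kb from the nearest region. Among those of 3, some lay nearest to Tgfbr2, a TGF-beta receptor, Ski, an inhibitor of SMAD proteins, and Thbs1, a matrix glycoprotein. Their starts were 168, 14.7 and 363 kb away, so that Tgfbr2 and Thbs1 are distant from their chains. These genes were picked after their values were seen, and no test was made of them.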
